A study of Homo sapiens with 15 samples.

Results

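Decitabine-treated CP70 was compared with A2780, the parental line from which CP70 was derived, to see which differences from the parent were still present after treatment, which were no longer called and which were new. A2780 is a human ovarian cancer cell line that is sensitive to cisplatin, and CP70 (A2780/cp70) is its cisplatin-resistant derivative. The comparison used the 3 arrays titled CP70 treated with decitabine and the 3 titled A2780, 6 of the 15 expression arrays of the series. The treated cells received 0.1 µM decitabine for 48 h, renewed after 24 h, and were harvested 96 h after the drug was removed. A2780 received no drug. A further 3 groups of 3 arrays, all of CP70, served as references: untreated cells, cells given 0.1 µM PXD101 for 48 h, and cells given the same decitabine course with 0.1 µM PXD101 for 24 h, the last 2 also harvested 96 h after drug removal. All cells grew in the same serum-supplemented medium. Each line is a single culture lineage, and the sources used here state no vehicle and no harvest schedule for the cells without drug. The p-values measure the spread between the triplicates, which the series' design text calls biological.

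Decitabine is a cytidine analogue that is built into DNA and traps DNA methyltransferases, so that methylation is lost as cells divide. Promoters rich in CpG dinucleotides can be silenced by methylation, and such silencing has been described in ovarian cancer cells that were selected with cisplatin. Genes that are normally kept silent outside the germline by methylation, such as the MAGE antigens on the X chromosome, are classical responders to the drug. PXD101 (belinostat) inhibits histone deacetylases. DNA methylation itself was not measured on these arrays.

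All values are log2 array signals, so that a difference of 1 is 2-fold. A gene was called when the limma test over 19775 genes gave a Benjamini-Hochberg adjusted p under 0.05. Array medians lay between 5.00 and 5.06. Across genes, the arrays of treated CP70 correlated with each other at 0.993 to 0.997, those of A2780 at 0.995 to 0.997, and the 2 groups with each other at 0.946 to 0.953. Untreated CP70 was the uneven group: its replicates 1 and 3 correlated at 0.997, but replicate 2 at only 0.983 and 0.986 with them. Replicate 2 reached 0.995 to 0.997 with the PXD101 arrays. The 3' actin probe set exceeded the 5' one by 0.337 to 0.377 in A2780, by 0.629 to 0.859 in untreated CP70 and by 0.443, 0.342 and 0.787 in treated CP70 replicates 1, 2 and 3. The part of this RNA measure in the results was not tested.

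Of 12 markers of ovarian carcinoma, KRT8, KRT18 and EPCAM were higher in treated CP70 than in A2780. The other 9, PAX8 and MSLN among them, were not called. Of these 9, WT1, MUC16 and CDH1 lay below the lower quartile of all genes, 4.34, in both groups. Of 13 leukocyte markers, only TYROBP was called, 1.31 higher, and the defining markers PTPRC, MS4A1 and LYZ lay at means of 3.64 to 3.88 in both groups. Of 16 markers of fibroblasts and endothelium, 3 were higher (DCN, LUM and THY1) and 6 lower (COL1A1, COL1A2, COL3A1, ACTA2, PDGFRA and PDGFRB). Over all genes tested, 17% were called higher and 12.9% lower than in A2780.

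Treated CP70 still differed from A2780 in a large part of the transcriptome. In all, 5910 genes (29.9% of those tested) were called, 3367 higher (17%) and 2543 lower (12.9%) than in A2780. At least 2-fold differences were called in 1844 genes (9.32%), and differences of 16-fold or more in 138 (0.698%). Untreated CP70 differed from A2780 in 6174 genes (31.2%), 3174 higher (16.1%) and 3000 lower (15.2%). Treated and untreated CP70 differed from each other in 1583 genes (8.01%), of which 963 (4.87%) were raised and 620 (3.14%) lowered by the drug. The median over all genes was 0.03 for treated CP70 minus A2780, 0.01 for the untreated line and 0.02 for the drug effect. The rank product test, which the submitters' design text names, called 603 genes higher and 557 lower in treated CP70 than in A2780, and limma had called each of them.

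The genes were sorted by their calls in these 3 comparisons. A difference was said to remain when both CP70 states were called against A2780 in the same direction and the drug effect was not called. It was partly reduced or widened when the drug effect was called as well and the difference shrank or grew. It disappeared when the treated cells were no longer called against A2780 and the drug effect was called. It turned past A2780 when both were called in opposite directions. It arose when the treated cells and the drug effect were called and the untreated line was not. The calls in these 3 comparisons defined the classes, so the sizes of the classes and of the differences in them are a description. The comparisons share arrays: a chance deviation of the untreated CP70 arrays moves the line difference and the drug effect in opposite directions.

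By this sorting, 3758 differences remained (1980 higher and 1778 lower in CP70), 203 were partly reduced, 244 widened, 362 disappeared, 36 turned past A2780 and 593 arose. A further 1571 genes were called in the untreated line only, without a called drug effect, and 1076 in the treated cells only. Of the 6174 differences of the untreated line, 60.9% were therefore classed as remaining and 5.86% as disappeared. Remaining means here that no drug effect was called, not that the level was unchanged. In 11 of the 3758 the drug effect was at least 2-fold without being called. Of the 5910 differences of the treated cells, 10% arose with treatment. The smaller classes moved by more than 1.5 times with single arrays. Without CP70 replicate 2, 1164 differences were partly reduced, 372 widened, 1629 disappeared, 152 turned past A2780 and 972 arose. Without CP70 replicate 1 these counts were 121, 119 and 138 for the first 3, and without CP70 replicate 3 they were 110, 112 and 146, with 22 that turned past A2780. Without treated replicate 2, 120 were partly reduced and 155 widened, and without treated replicate 3, 110 were partly reduced and 219 disappeared. Without A2780 replicate 2 or 3, 15 or 16 turned past A2780.

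**Figure D1:**
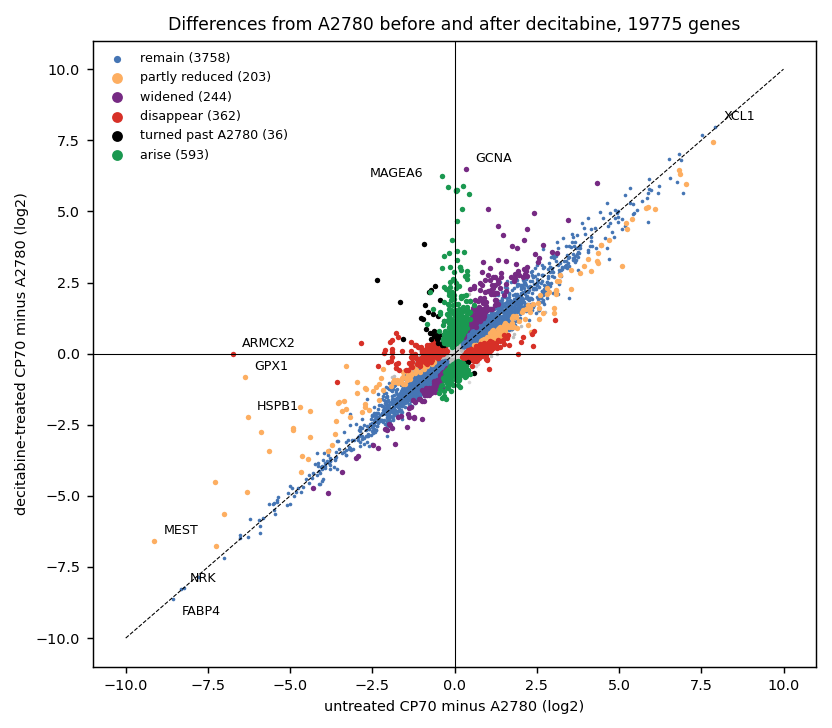
Each point is 1 of 19775 genes; the x axis is the log2 difference of untreated CP70 from A2780, the y axis that of decitabine-treated CP70 from A2780, and colour marks the class (grey: no class, or called in 1 comparison only). Most large differences lie near the dashed line of equality (3758 remain, blue). ARMCX2 lies at -6.74 on the x axis and -0.03 on the y axis, and MAGEA6 at -0.38 and 6.26.

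Among larger line differences the median share removed by the drug was smaller, while a larger part of the genes was partly reduced. Among 1316 genes with a called line difference of 2-fold to 4-fold, the median share removed was 15.5%; 80 were partly reduced and 68 disappeared. Among 469 genes at 4-fold to 16-fold the median was 6.0%; 57 were partly reduced and 12 disappeared. Among 144 genes (0.728%) above 16-fold the median was 4.5%; 105 of these differences remained, 36 were partly reduced, 2 widened and 1, that of ARMCX2, disappeared. The share removed is computed from the same arrays that defined the classes and is given as a description.

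The strongest differences below the parent were mostly genes that stayed as low in treated as in untreated CP70. FABP4, a fatty acid binding protein, read 12.59, 12.62 and 12.69 in A2780, 4.01, 3.96 and 4.25 in untreated CP70 and 4.07, 3.74 and 4.19 after decitabine. The treated difference was -8.63 ± 0.13 (SE; 396-fold; adjusted p = 7.85e-16, limma). All CP70 arrays of FABP4, treated or not, lay below the lower quartile of all genes. PMP2, a myelin protein of the same family, was lower by 304-fold, and NRK, a kinase gene on the X chromosome, by 310-fold (A2780 11.06, 11.90 and 11.61; treated 3.04, 3.32 and 3.38). The distal-less homeobox locus on chromosome 7 was lower across its members: DLX5 differed by -6.47, DLX6 by -3.04 and the antisense RNA DLX6-AS1 by -7.84. OLFM3, an olfactomedin, ADRB1, the beta-1 adrenergic receptor, and FIGN, a microtubule-severing enzyme, were lower by 147-fold, 88.1-fold and 83.1-fold. Probe sets of ADRB1 ranged from -6.46 to -0.66, those of FABP4, PMP2, OLFM3 and FIGN all lay at -4.33 or below.

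The strongest differences above the parent also stayed. XCL1, a lymphocyte-attracting chemokine, read 4.26, 4.48 and 4.54 in A2780 and 12.56, 12.47 and 12.11 in treated CP70, a difference of 7.95 ± 0.17 (SE; 248-fold; adjusted p = 2.58e-14). Its drug effect was 0.04 (adjusted p = 0.92). ADAMTS5, which cleaves aggrecan, was higher by 208-fold. ZPLD1, a zona pellucida domain protein, was 174-fold higher, with a called drug effect of -0.40 that removed 5.14% of the line difference. MECOM, a zinc finger transcription factor, DCLK1, a doublecortin-like kinase, PTPRK, a receptor phosphatase, and SEMA6D, a semaphorin, were higher by 129-fold, 112-fold, 87.8-fold and 78.8-fold in their brightest probe set. Each of these 4 also had a probe set near 0 (0.15, -0.11, 0.08 and -0.01). Probe sets called in the same direction numbered 4 of 5 for MECOM, 3 of 4 for DCLK1, 1 of 2 for PTPRK and 4 of 5 for SEMA6D. PTPRK and SEMA6D were partly reduced, with drug effects of -0.37 and -0.54. Of the 10 largest differences above A2780, those of GCNA and MAGEA6 were not carried over from the untreated line and are described with the genes that the drug raised.

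Promoter sequences are shown for the first members of the class that disappeared and of the class that remained among genes lower in CP70, because loss of methylation acts on CpG dinucleotides. They cover the 250 bases before the start of the gene, from RefSeq (GRCh38.p14), 5′ to 3′ on the strand of the gene, with each CG in capitals. ARMCX2 lies at chrX:101659851-101660100 (minus strand), NES at chr1:156677408-156677657 (minus) and ZNF595 at chr4:53071-53320 (plus); NRK lies at chrX:105822289-105822538 (plus), DLX6-AS1 at chr7:97014066-97014315 (minus) and OLFM3 at chr1:101846989-101847238 (minus). The first 3 belong to the class that disappeared, though NES was partly reduced when CP70 replicate 2 was left out:
ARMCX2: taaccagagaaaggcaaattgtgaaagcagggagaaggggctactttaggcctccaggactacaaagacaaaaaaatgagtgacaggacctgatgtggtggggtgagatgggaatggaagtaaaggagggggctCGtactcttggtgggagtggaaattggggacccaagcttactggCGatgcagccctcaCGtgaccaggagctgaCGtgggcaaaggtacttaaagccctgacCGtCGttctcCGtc
NES: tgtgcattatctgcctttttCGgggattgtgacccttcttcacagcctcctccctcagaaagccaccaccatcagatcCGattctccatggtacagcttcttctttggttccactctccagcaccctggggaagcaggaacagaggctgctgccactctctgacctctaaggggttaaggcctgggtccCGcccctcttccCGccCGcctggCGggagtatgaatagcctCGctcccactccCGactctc
ZNF595: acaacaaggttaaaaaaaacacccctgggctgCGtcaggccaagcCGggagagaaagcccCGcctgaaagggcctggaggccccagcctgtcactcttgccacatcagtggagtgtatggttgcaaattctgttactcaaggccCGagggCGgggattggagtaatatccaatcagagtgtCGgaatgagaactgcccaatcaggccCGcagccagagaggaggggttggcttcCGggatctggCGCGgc
The other 3 belong to differences that remained:
NRK: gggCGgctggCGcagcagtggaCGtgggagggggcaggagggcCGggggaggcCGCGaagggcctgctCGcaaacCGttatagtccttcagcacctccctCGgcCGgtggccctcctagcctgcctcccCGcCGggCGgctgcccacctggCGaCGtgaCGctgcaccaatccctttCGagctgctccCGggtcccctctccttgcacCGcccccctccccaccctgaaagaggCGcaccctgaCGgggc
DLX6-AS1: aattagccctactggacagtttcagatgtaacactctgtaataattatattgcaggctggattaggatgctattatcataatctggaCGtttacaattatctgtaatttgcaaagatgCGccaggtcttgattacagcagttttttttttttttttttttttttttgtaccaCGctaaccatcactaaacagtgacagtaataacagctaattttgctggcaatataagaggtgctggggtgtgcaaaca
OLFM3: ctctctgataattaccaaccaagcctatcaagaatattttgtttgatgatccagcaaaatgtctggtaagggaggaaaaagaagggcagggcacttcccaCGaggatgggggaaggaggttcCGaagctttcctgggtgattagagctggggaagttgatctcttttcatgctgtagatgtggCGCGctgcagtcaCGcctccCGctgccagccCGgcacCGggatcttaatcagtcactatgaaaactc
The windows hold 7, 8 and 10 CG for ARMCX2, NES and ZNF595, and 21, 3 and 8 for NRK, DLX6-AS1 and OLFM3. Both sets thus hold sparse windows, and the densest of the 6 belongs to a gene whose difference remained. The next genes, MBD3L2 (disappeared) and FIGN (remained), held 5 and 15 CG and are not printed. DLX6-AS1 is an antisense RNA and lies outside the protein-coding background given next. Among all protein-coding genes with a sequence (81.5% of those tested), the median was 19 CG in 250 bases, and 73% had 10 or more. The median was 19 for genes lower in CP70 whose difference disappeared and 21 for those whose difference remained. It was 14 for partly reduced genes lower in CP70, 16 for those that remained at 16-fold or more, and 14 for genes raised by treatment that kept their class in both subsets of the CP70 arrays (without replicate 2, and without replicates 1 and 3; 59.7% with 10 or more). The RefSeq start need not be the start used in these cells.

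ARMCX2, an armadillo repeat gene on the X chromosome, was the gene with the largest difference that disappeared. It read 10.51, 10.27 and 10.38 in A2780, 3.80, 3.98 and 3.15 in untreated CP70, and 10.43, 10.38 and 10.26 after decitabine. The treated arrays overlapped with those of A2780, at a difference of -0.03 (95% interval -0.42 to 0.36; adjusted p = 0.935), against -6.74 (107-fold) before treatment. In the arms with PXD101 it read 3.68, 4.07 and 4.31 without decitabine and 10.43, 10.59 and 10.49 with it. The 107-fold gap to the parent was thus bridged in both sets of treated arrays.

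Other genes lower in CP70 came back to the parental range at smaller sizes. ZNF595, a zinc finger protein, read 8.54, 8.81 and 8.77 in A2780, 5.85, 5.95 and 5.81 in untreated CP70 and 8.89, 9.15 and 9.26 after treatment. Its treated difference was 0.39 (95% interval -0.05 to 0.84), with all treated arrays above those of A2780. MBD3L2, of the MBD3-like family, ZSCAN4, a zinc finger gene of early embryos, and PROCR, the protein C receptor, had line differences of -2.32, -2.14 and -2.13 and treated differences of -0.45, 0.03 and 0.14. For these 3 the treated arrays lay within or overlapped with the spread of A2780, which was wide for ZSCAN4 (5.73, 6.91 and 7.95). C11orf96 went from -2.03 to -0.29. BST2, the interferon-induced virus tether tetherin, went from -1.97 to 0.42 (95% interval -0.29 to 1.12), beside A2780 values of 7.02, 8.26 and 8.71.

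NES, which encodes the intermediate filament nestin, was less even. It read 6.27, 8.73 and 7.19 in untreated CP70 and 9.89, 9.63 and 10.42 after treatment, against 10.94 to 11.08 in A2780. The treated difference of -1.01 missed the threshold (adjusted p = 0.0782), but its own 95% interval, -1.88 to -0.14, did not include 0. Leaving out CP70 replicate 2, or replicates 1 and 3, placed NES among the partly reduced differences.

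In 7 of the 8 largest differences above A2780 that disappeared, CP70 replicate 2 lay below the other 2 untreated arrays by more than 1 on the log2 scale. ESRP1, an epithelial splicing regulator, read 8.46, 5.58 and 7.97 in untreated CP70, 5.64, 5.76 and 5.03 after decitabine and 4.24 to 4.34 in A2780. CP70 replicate 2 of ESRP1 thus lay within the treated range before any drug. The same held for GDPD1, COLEC12, a scavenger receptor, and HRK, a BH3-only apoptosis activator. In FGF19, a growth factor of bile acid signalling, MBL2, mannose-binding lectin, and WARS1, tryptophanyl-tRNA synthetase, replicate 2 (5.58, 4.44 and 10.57) lay above the highest treated array (5.33, 3.73 and 10.51). The treated 95% intervals of ESRP1 (0.13 to 2.26), FGF19 (0.05 to 1.5) and WARS1 (0.11 to 1.23) did not include 0. Without CP70 replicate 2, ESRP1, FGF19, COLEC12, HRK and WARS1 were partly reduced, and without replicates 1 and 3 the differences of ESRP1, FGF19, COLEC12 and WARS1 remained. In the PXD101 arms the decitabine effects on these 7 genes were -0.35 to 0.93 (adjusted p 0.289 to 0.991). PCDHB14, a clustered protocadherin, was the exception: it read 6.93, 7.05 and 7.09 untreated, 5.83, 5.86 and 5.39 treated and 5.22, 5.31 and 5.63 in A2780. Its drug effect was -1.33 (adjusted p = 7.96e-05) and -1.35 in the PXD101 arms (adjusted p = 5.43e-05).

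**Figure D2:**
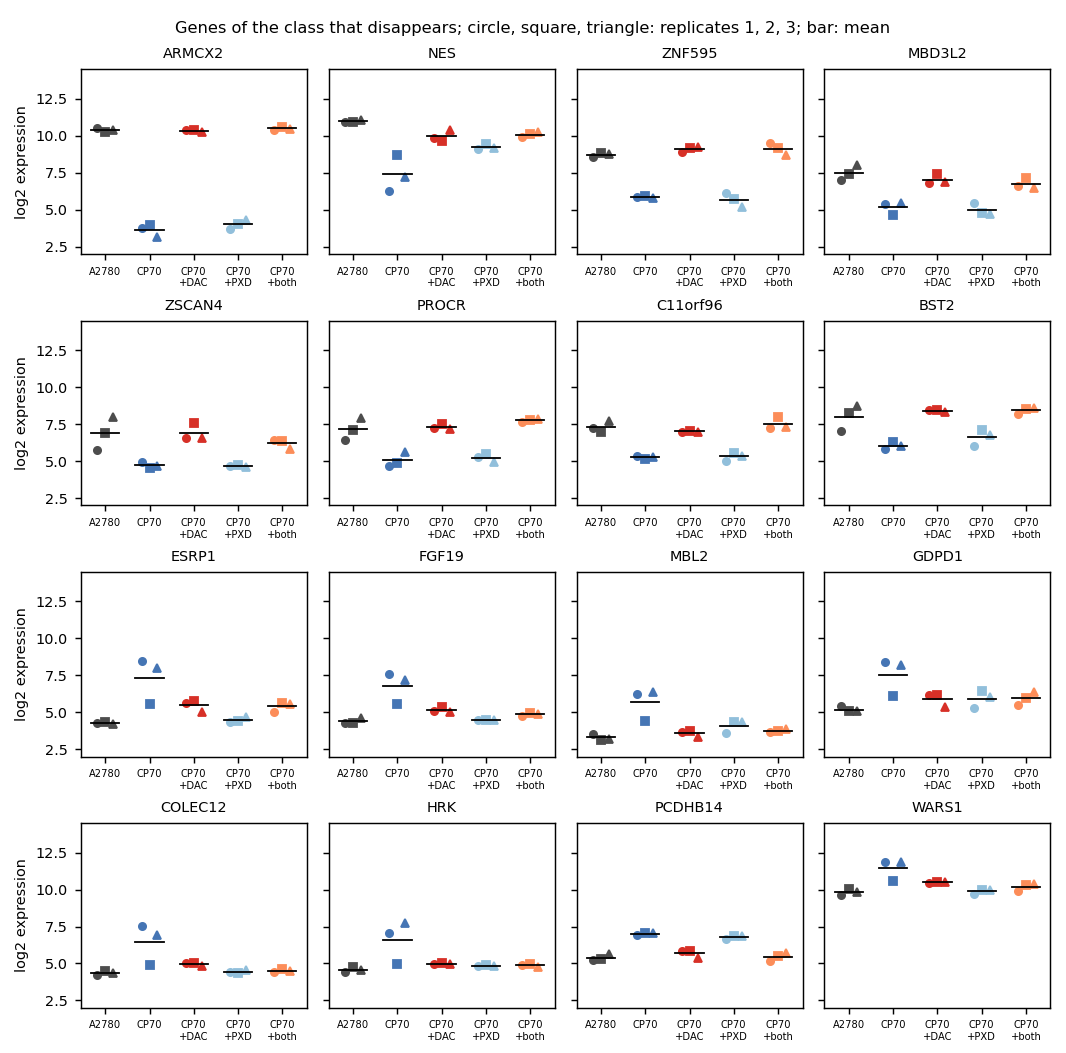
Log2 expression of the 8 genes lower (upper 2 rows) and the 8 genes higher in untreated CP70 whose difference from A2780 disappeared, for A2780, untreated CP70, CP70 with decitabine (+DAC), with PXD101 (+PXD) and with both drugs; symbols are replicates 1, 2 and 3, bars are means. ARMCX2 returns from a mean of 3.64 to 10.36, and for ESRP1 the CP70 replicate 2 (5.58) lies with the treated arrays.

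The class that disappeared depended on which untreated arrays were used. For 342 of its 362 genes the 95% interval of the treated difference lay within 2-fold of A2780. However, 81 of the 362 had a line difference of at least 2-fold before treatment, so this bound alone shows no return to the parent. Among the 1571 genes called in the untreated line only, without a called drug effect, it held for 1416. Without CP70 replicate 2, 1629 differences disappeared, 299 of them among the 362; without replicates 1 and 3, 94 disappeared, 43 of them among the 362. With the PXD101 arrays in place of the untreated ones the count was 205, with 70 shared. In both subsets of the CP70 arrays 39 genes kept the class, 28 lower and 11 higher in CP70, among them ARMCX2, ZNF595, MBD3L2, ZSCAN4, PROCR, C11orf96, BST2 and PCDHB14. Another 3 of the 39, chosen after their values were seen, are PSMB8, an immunoproteasome subunit (mean 6.02 in A2780, 4.13 untreated, 6.49 treated), PLAU, urokinase (7.27, 6.11 and 7.57), and CDKN1A, the cyclin-dependent kinase inhibitor p21 (10.60, 9.65 and 10.57).

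GPX1, the main cellular glutathione peroxidase, had the largest drug effect among the differences that were partly reduced. GPX1 read 10.59, 10.89 and 11.03 in A2780, 4.44, 4.36 and 4.60 in untreated CP70, and 10.03, 10.10 and 9.92 after decitabine. The drug removed 87.1% of an 82.8-fold deficit, and a difference of -0.82 (95% interval -1.17 to -0.47; adjusted p = 0.00119) was still called, with no overlap between the groups. LXN, the carboxypeptidase inhibitor latexin, went from -3.29 to -0.44, with 86.8% removed. HSPB1, a small heat shock protein, read 11.81, 11.81 and 12.21 in A2780, 5.73, 5.34 and 5.89 untreated and 9.62, 9.76 and 9.75 treated. It thus stopped at 4.7-fold below the parent.

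Further genes of this class were raised clearly and stayed far from A2780. MEST, an imprinted gene, read 13.26, 13.28 and 13.32 in A2780, 4.23, 4.04 and 4.20 in untreated CP70 and 6.48, 6.88 and 6.78 after treatment. The 5.88-fold rise removed 28.0% of the log2 difference and left MEST 95.4-fold below A2780. BEX1 on the X chromosome was raised by 2.80 and stayed 22.6-fold lower, and its neighbour in the list BEX4 was raised by 2.23 and stayed 10.7-fold lower. NEFL, the light neurofilament chain, GLMP, a lysosomal membrane protein, and KHDC1L ended 6.74-fold, 4.05-fold and 3.69-fold below A2780. LIN28A, which blocks let-7 maturation, rose by 0.50 (adjusted p = 0.0469) and stayed 109-fold lower; without CP70 replicate 2 its rise was not called.

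Among partly reduced differences above A2780, MMP16, a membrane-bound matrix metalloproteinase, and DMKN, dermokine, were lowered by 1.44 and 1.26 and stayed 3.01-fold and 2.71-fold higher. Both were also lowered by decitabine in the PXD101 arms (-0.94 and -0.76, adjusted p = 0.0027 and 0.00559). SLC16A4, a monocarboxylate transporter family member, UST, PTPDC1, ZSWIM2, KLF5 and FOXF2 were lowered by 1.24 to 2.02 against untreated CP70. In the PXD101 arms their decitabine effects of -0.59 to 0.42 were not called. UST was called against A2780 at an adjusted p of 0.0337 and missed the threshold in 7 alternatives.

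In 36 genes the drug carried the level past that of A2780, 33 of them from below. MAGEB2 read 3.91, 4.74 and 4.77 in A2780, 3.61, 3.39 and 3.66 in untreated CP70 and 8.44, 8.33 and 8.19 after treatment, 14.4-fold above the parent. LGALS3, the lectin galectin-3, read 7.82, 8.05 and 8.88 in A2780 and 10.60, 10.69 and 10.64 after treatment, from 7.56 to 7.70 in the untreated line. S100A3, a calcium-binding protein, ended 3.54-fold above A2780. IFI27, an interferon-induced gene, ended 6.04-fold above the parental mean, while the A2780 arrays themselves ranged widely, from 4.83 to 8.68. In the arms with PXD101 decitabine raised all 33 genes again. The 3 genes that turned from above, PCF11, SNRNP48 and FMC1, differed from A2780 by -0.67 to -0.30; both PCF11 and SNRNP48 have a second probe set with the opposite sign. The calls of PCF11, SNRNP48 and FMC1 were lost in 4, 6 and 4 alternatives.

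**Figure D3:**
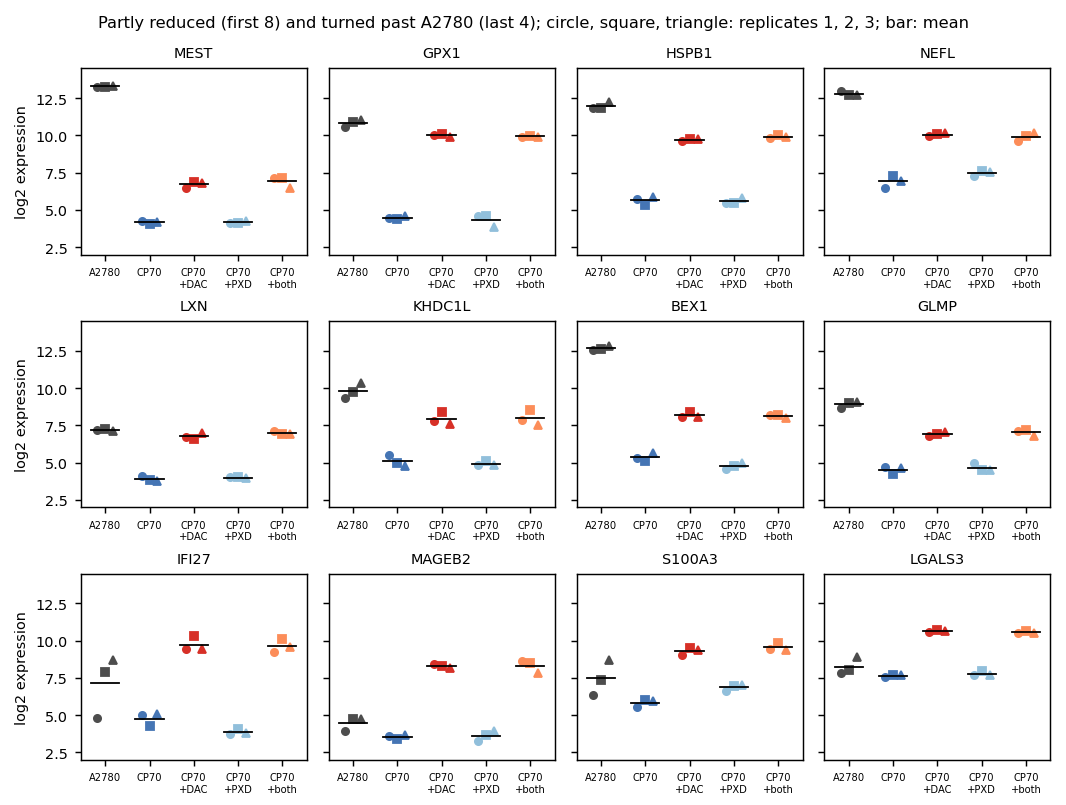
Log2 expression of the 8 genes with the largest drug effect among partly reduced differences below A2780 (first 8 panels) and of 4 genes that turned past A2780; groups, symbols and bars as defined in the panel title and the tick labels (DAC, decitabine; PXD, PXD101). GPX1 rises from a mean of 4.47 to 10.02 against 10.84 in A2780, while MEST stops at 6.71 against 13.29.

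Differences that arose were mostly gains. Of the 593, 435 lay above and 158 below A2780, and 151 of the gains and 17 of the losses were at least 2-fold (over all genes, 5.44% were called at least 2-fold higher and 3.89% at least 2-fold lower than A2780). The largest gains were MAGE antigens and germline genes that were near the array floor in both untreated lines. MAGEA6 read 4.01, 4.19 and 4.0 in A2780, 3.71, 3.72 and 3.63 in untreated CP70 and 10.34, 10.42 and 10.21 after decitabine, 76.4-fold above the parent (adjusted p = 4.61e-14). DAZL, which binds RNA in germ cells, read 3.09, 3.13 and 3.08 in A2780 and 8.91, 8.76 and 8.91 after treatment, a 54.0-fold gain. No treated array of either gene overlapped with any array of the untreated lines. SSX1, MAGEA12, GTSF1, a piRNA pathway factor, TKTL1, a transketolase-like gene of the X chromosome, MAGEA4 and MAGEA1 gained 60.2-fold, 58.6-fold, 53.4-fold, 52.1-fold, 49.0-fold and 33.8-fold. MAGEA genes are close copies of each other, and how far their probe sets tell them apart was not tested.

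Losses that arose were smaller. GABRA2, a GABA-A receptor subunit, differed from A2780 by -1.58, PDK1, pyruvate dehydrogenase kinase, by -1.56 and POU1F1, a pituitary transcription factor, by -1.48. TET1, which oxidises 5-methylcytosine, read 8.77, 8.93 and 8.83 in A2780, 8.19, 8.66 and 8.36 in untreated CP70 and 7.92, 7.59 and 7.31 after treatment (2.35-fold lower; adjusted p = 3.16e-05). All treated arrays of TET1 lay below both untreated lines. DPYD, which degrades pyrimidines including fluorouracil, and AGAP1 were 2.49-fold and 2.32-fold lower, DNAJC12 2.61-fold and PWWP3B 2.47-fold. Decitabine lowered POU1F1, TET1, DPYD, AGAP1 and PWWP3B in the PXD101 arms as well, while GABRA2, PDK1 and DNAJC12 were not called there.

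The X chromosome held 38 of the 435 gains that arose (8.74%), against 3.52% of all genes tested. Of the gains, 26.9% had an A2780 mean below the lower quartile of all genes, and 6.9% were still below it after treatment. For genes in no class these shares were 36.3% and 35.5%, so low levels in A2780 did not set the gains apart. For the losses, 1.27% lay below it in A2780, but a gene near the array floor can hardly be called lower. These shares are descriptions of the class.

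Among differences that widened, GCNA, an X-linked germ cell gene, read 4.12, 3.98 and 4.28 in A2780, 4.56, 4.35 and 4.51 in untreated CP70 and 10.62, 10.86 and 10.38 after treatment. Its line difference of 0.35 was called at an adjusted p of 0.0451, so GCNA lies at the border to the genes that arose. CRIP1, a cysteine-rich LIM protein, IL13RA2, a decoy receptor for interleukin-13, and RSAD2, the antiviral enzyme viperin, went from 1.03, 1.33 and 1.46 above A2780 to 5.09, 4.49 and 4.18. Below A2780, HTR1F, a serotonin receptor, went from -1.80 to -3.18, C1orf54 from -1.0 to -2.29, SLC7A2, a cationic amino acid transporter, from -1.46 to -2.58 and PI15, a peptidase inhibitor, from -3.85 to -4.91. All 8 moved the same way with decitabine in the PXD101 arms, each with a called effect.

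**Figure D4:**
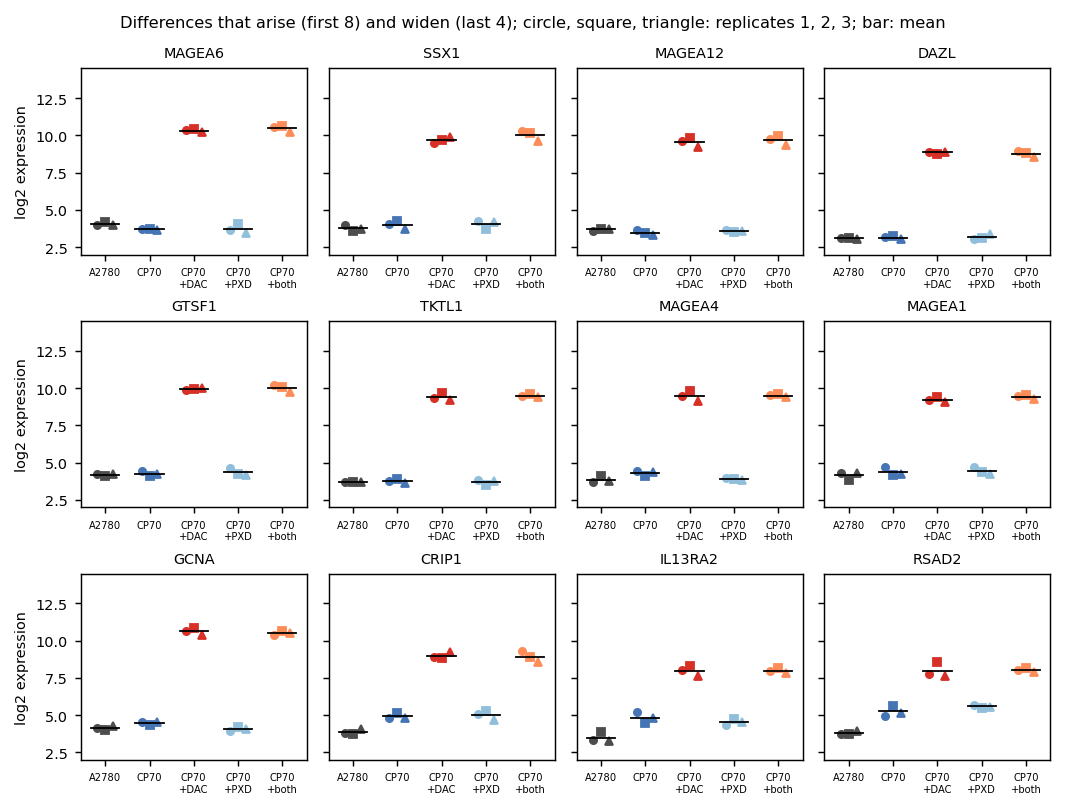
Log2 expression of the 8 genes with the largest gain that arose (first 8 panels) and of 4 genes whose difference above A2780 widened; groups, symbols and bars as defined in the panel title and the tick labels (DAC, decitabine; PXD, PXD101). MAGEA6 lies between 3.63 and 4.19 in the untreated lines and between 10.21 and 10.42 after decitabine.

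The arms with PXD101 gave a check on arrays whose means were not part of the comparisons that defined the classes. The check is not fully separate. All 15 arrays were fitted together, so these arrays entered the estimate of spread behind every class call. In these arms, decitabine with PXD101 against PXD101 alone called 1965 genes (9.94%), 1169 raised (5.91%) and 796 lowered (4.03%). PXD101 was given for 24 h in the first arm and 48 h in the second. Of the 1438 genes in the 5 classes with a called drug effect, 705 (49%) were called in the same direction and 2 in the opposite one. Genes raised by the drug were called again in 511 of 876 cases (58.3%), and lowered genes in 194 of 562 (34.5%). By class, this held for 268 of 435 gains that arose (61.6%), 67 of 158 losses that arose (42.4%), 159 of 244 widened differences (65.2%), 96 of 203 partly reduced ones (47.3%) and 34 of 36 that turned past A2780. It held for 55 of 174 differences from below that disappeared (31.6%) and for 26 of 188 from above (13.8%). Genes that kept their class in both subsets of the CP70 arrays give no separate check here. One subset kept CP70 replicate 2 alone, which correlated with the PXD101 arrays at 0.995 to 0.997. Keeping the class there already selects for agreement in a contrast against PXD101 arrays. Of the 3758 differences that remained, 622 (16.6%) were called in this contrast, so that remaining does not mean that decitabine had no effect in the other arms.

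The genes were also read through lists of known function, with all genes tested as the background (17% higher and 12.9% lower than A2780, median difference 0.03). Of all genes tested, 19% were in the class that remained and 3% in the class that arose.

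Most cancer-testis antigens stood above the parent. Of 27 tested, 19 were higher in treated CP70 than in A2780 and 1 was lower, with a median difference of 1.62; in the untreated line 1 was higher and 2 were lower. Of these, 17 arose with treatment, among them CTAG2 (3.98), PAGE1 (3.01), MAGEB1 (2.94) and MAGEA11 (2.86). PRAME was the member below the parent: it read 10.59, 10.59 and 10.73 in A2780, 7.18, 8.41 and 7.44 untreated and 9.67, 9.51 and 9.69 treated, a difference of -1.01. Of 53 germ cell and piRNA pathway genes, 27 were higher and 2 lower (median 0.32), 20 of them arising, with MAEL (4.66), CTCFL (3.55), HORMAD1 (3.05) and TDRD12 (2.59) next to DAZL, GTSF1 and TKTL1. The germline programme was covered in part: PIWIL1, SPO11, TEX15, NANOS2 and REC8 differed from A2780 by -0.22 to 0.07 and were not called. RNF212, a meiotic recombination factor, stayed 4.32-fold below A2780.

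Interferon-stimulated genes ended above the parent as well. Of 55 tested, 34 were higher and 2 lower than A2780 (median 0.86), against 12 and 12 in the untreated line (median -0.12); decitabine raised 38. In all, 19 arose, 7 widened, 6 disappeared and 3 turned past A2780. OAS1 (2.62), XAF1 (2.16), the RNA sensor RIGI (1.83) and IRF7 (1.37) were among those that arose. CMPK2 read 4.23, 4.58 and 5.07 in A2780 and 9.46, 9.97 and 9.34 after treatment, 31.2-fold higher. Those that disappeared were IFIT1, IFITM1, IFITM2, IFITM3, BST2 and GBP1, at treated differences of -0.59 to 0.42. TRIM22 and UBE2L6 stayed below A2780 by 1.41 and 1.31; the call of TRIM22 was lost in 4 alternatives, among them without A2780 replicate 3 and without treated replicate 1 or 3 (adjusted p up to 0.0681). The A2780 arrays themselves spread in this list, with medians of 6.59, 7.04 and 7.22 in replicates 1, 2 and 3.

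In antigen presentation, 5 of 32 genes were higher and 5 lower than A2780 (median 0.01). The class II genes HLA-DMA and HLA-DMB gained 1.46 and 0.48 over A2780, whereas HLA-DPA1 stayed 1.20 below it. HLA-DPB1 also arose above A2780, a call lost with the mean of its probe sets (limma adjusted p = 0.228). The call of HLA-DMB was lost in 3 alternatives, among them without A2780 replicate 2 and without treated replicate 3 (adjusted p up to 0.084). PSMB9, an immunoproteasome subunit, read 7.58, 9.51 and 9.93 in A2780 and 7.43, 7.63 and 7.24 after treatment (difference -1.58; adjusted p = 0.0121), and the call was lost in 3 alternatives, among them without A2780 replicate 2 and without replicate 3. Of 36 cytokines, chemokines and NF-kB targets, 24 were higher and 1 lower (median 0.56). CXCL8, the neutrophil chemokine interleukin-8, went from 0.84 above A2780 untreated to 2.88 treated, and NFKBIA, the inhibitor of NF-kB, from 0.89 to 1.81.

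Metallothioneins, cysteine-rich proteins that bind metals, rose further above the parent. Of 9 tested, 7 were higher than A2780 (median 1.86), against 4 higher in the untreated line (median 0.34). MT1X read 6.58, 7.05 and 6.89 in A2780, 8.82, 9.46 and 8.83 in untreated CP70 and 10.88, 11.25 and 11.49 after decitabine, 20.6-fold above A2780. MT2A was 16.1-fold higher. MT1 genes are close copies, and their probe sets may share signal.

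Of 50 genes of platinum handling and glutathione, 16 were higher and 11 lower than A2780 (median 0.13), against 20 and 15 in the untreated line. In all, 22 of these line differences remained, and over all genes 60.9% of the line differences did so; a further 9 were called in the untreated line only. SLC7A11, the cystine importer, read 5.40, 6.12 and 5.81 in A2780, 11.93, 10.61 and 11.86 untreated and 11.41, 11.36 and 10.66 treated, 41.3-fold above A2780 with a drug effect of -0.32 (adjusted p = 0.694). GCLC and GCLM, the subunits of glutamate-cysteine ligase, stayed 2.03-fold and 1.8-fold higher. SLC31A1, the copper importer that also takes up cisplatin, was 1.88-fold above A2780, and ATP7B, a copper exporter, 2.23-fold below it. ATP7B has a second probe set at 0.02, and the call of SLC31A1 was lost with the mean of its probe sets (adjusted p = 0.115). MGST2, a microsomal glutathione transferase, was partly reduced, from -1.72 to -1.02.

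Homeobox genes had the smallest share of called drug effects among the 20 lists. Of 48, 20 were higher and 13 lower than A2780, 27 remained and 1 was called for the drug effect. HOXB7 read 4.99, 5.33 and 5.18 in A2780, 10.10, 10.08 and 10.21 untreated and 10.23, 10.11 and 10.17 treated, 32-fold above A2780. HOXB6 was 21.6-fold and HOXB5 5.84-fold higher. MEIS1 and PAX2, at 9.61 to 9.72 and 8.69 to 9.36 in A2780, stayed 49.4-fold and 35.8-fold lower. Of 22 oncofetal and pluripotency genes, 3 were higher and 10 lower (median -0.19), against 1 and 11 in the untreated line (median -0.42). In this list 10 differences remained, and decitabine raised 3 genes, beside 4.87% raised over all genes tested. TRIM71 and the glypican GPC3 stayed 25.7-fold and 26.5-fold lower, while ZFP42, a pluripotency marker, arose at 2.33 (treated 6.68, 6.89 and 5.19). Of 39 imprinted genes, 7 were higher and 13 lower, with PEG3 arising at 1.71 and FAM50B remaining at -1.69.

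Of 19 X-linked ARMCX, BEX, TCEAL and GPRASP genes, 9 were higher and 5 lower than A2780. TCEAL8 read 3.04, 3.43 and 3.29 in A2780 and 9.17, 9.12 and 8.75 after treatment, and remained 54.3-fold higher, opposite to BEX1 and BEX4. ARMCX6 and ARMCX4 were lowered by 0.54 and 0.61 and stayed 4.15-fold and 2.98-fold higher. BEX5, at 3.28 to 3.92 in both untreated lines, arose at 5.75, 6.06 and 5.56. ARMCX2 was the member at the parental level with the largest drug effect, 6.71.

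Of 34 p53 target genes, 10 were higher and 18 lower than A2780 (median -0.33), and 20 remained. BAX, an effector of apoptosis, read 9.58, 9.53 and 9.80 in A2780 and 8.37, 8.45 and 8.03 after treatment (2.56-fold lower), with a drug effect of 0.19 (adjusted p = 0.399). TP53INP1 stayed 4.39-fold lower, and PHLDA3 18.1-fold higher. Among 37 apoptosis regulators, 10 were higher and 5 lower; PYCARD, the inflammasome adaptor ASC, arose at 4.14-fold (A2780 5.10, 5.11 and 4.84; treated 6.80, 6.92 and 7.48). CASP4 stayed 3.77-fold lower and APAF1 1.61-fold lower, the latter with probe sets from -0.69 to 0.08. Of 54 cell cycle genes, 16 were higher and 5 lower. CCND2, a D-type cyclin, widened to 3.25-fold below A2780, and RB1 stayed 2.19-fold below it.

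Of 19 mismatch repair genes, 1 was higher and 2 lower than A2780 after treatment, against 7 lower in the untreated line. Of these 7, 5 were called in the untreated line only, without a called drug effect, and decitabine raised 1 gene of the list and lowered 1. MSH6 remained 0.64 lower (adjusted p = 0.0157), and its call was lost without A2780 replicate 2 and without treated replicate 1 or 2 (adjusted p up to 0.0614). PMS1 was 0.58 lower in its brightest probe set, with probe sets from -0.58 to 0.97, and POLD4 was 0.30 higher at an adjusted p of 0.0495, a call lost in 10 alternatives (adjusted p up to 0.197), among them the replicate block, median centring and the leaving out of any treated array, of A2780 replicate 1 or 2 or of CP70 replicate 1 or 3. Of 42 excision, crosslink and recombination repair genes, 5 were higher and 9 lower. ERCC1, of the nuclease that excises platinum adducts, arose at 1.74-fold (A2780 9.65, 9.86 and 10.21; treated 10.63, 10.85 and 10.64). ERCC5 and XPC stayed 2.11-fold and 1.88-fold lower.

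The DNA methylation machinery, which includes the targets of decitabine, gave 4 higher and 5 lower of 25 tested. DNMT1, the maintenance methyltransferase, read 10.12, 10.15 and 9.89 in A2780 and 10.02, 9.86 and 9.80 in treated CP70 (difference -0.16, 95% interval -0.43 to 0.11). DNMT3B differed by 0.14 (95% interval -0.62 to 0.90), beside untreated CP70 values of 6.74, 8.69 and 6.92. DNMT3A was 1.01 lower in its brightest probe set, with probe sets from -1.01 to 1.39. TET2 and HELLS stayed 2.69-fold and 2.11-fold lower. DCK, the kinase that activates decitabine, was 0.34 higher (adjusted p = 0.0177), a call lost in 4 alternatives (adjusted p up to 0.0914, among them without A2780 replicate 2 and without treated replicate 1 or 2).

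In the extracellular matrix and mesenchymal list 20 of 60 genes were higher and 13 lower. ADAMTS1 stayed 59.5-fold higher, and LAMB1, a laminin chain, was partly reduced from 26-fold to 16-fold; COL1A2, a collagen chain, and CDH2, N-cadherin, widened to 9.18-fold and 4.67-fold lower. Of 41 keratins and epithelial junction genes, 12 were higher and 1 lower. DSG2, a desmosomal cadherin, stayed 24.4-fold higher, KRT18 widened to 7.0-fold and KRT19 arose at 5.11-fold. Of 32 genes of the integrated stress and unfolded protein response, 18 were higher and 2 lower (median 1.08), 19 remained, and decitabine lowered 2. In the untreated line 26 were higher and 2 lower (median 1.34), and 7 were called in that line only, without a called drug effect. The median drug effect over this list was -0.31. DDIT3, a stress-induced transcription factor, read 7.36, 7.55 and 7.60 in A2780, 10.69, 9.17 and 10.74 untreated and 10.88, 10.43 and 10.22 treated. The list median was 10.98, 9.76 and 10.98 in untreated replicates 1, 2 and 3, so replicate 2 stood apart in these genes too; the part of this in the line differences was not tested.

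**Figure D5:**
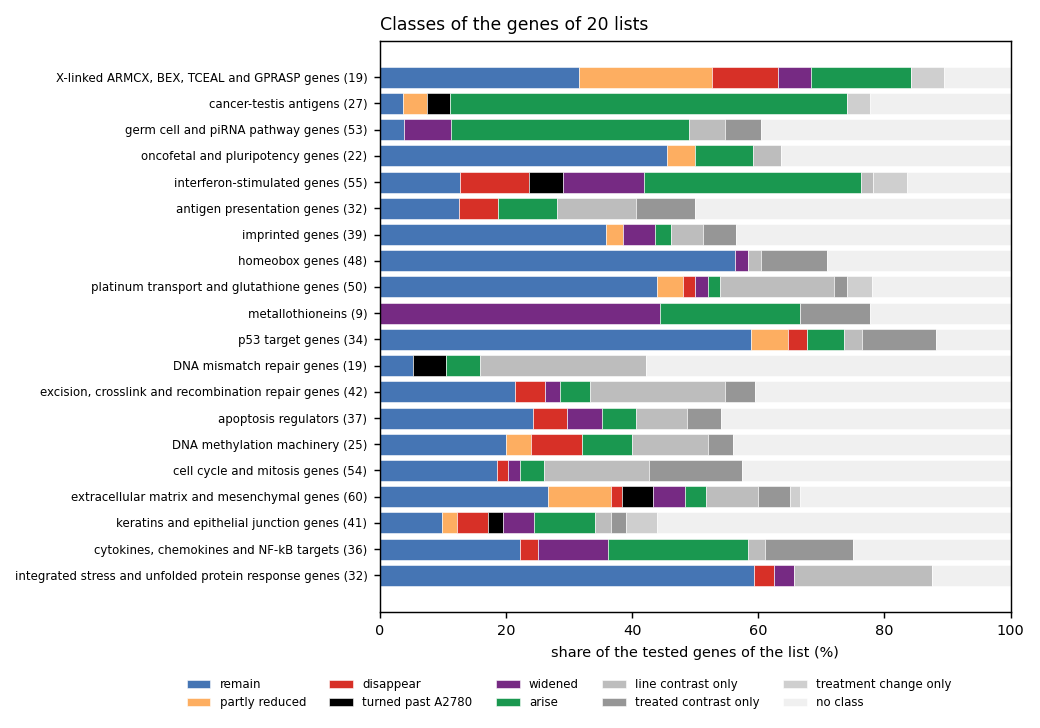
For each of 20 gene lists (number tested in brackets), the stacked bar gives the share of its tested genes in each class, in percent. New differences make up 17 of 27 cancer-testis antigens, while retained ones make up 27 of 48 homeobox genes, 20 of 34 p53 target genes and 19 of 32 stress response genes. Among all genes tested, 3% were in the class that arose and 19% in the class that remained.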

How the data were processed

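RNA was extracted on Qiagen columns, amplified with the NuGEN WT-Ovation Pico system and labelled with biotin, as the labels' protocols state. The authors deposited 1 table of log2 values for 54675 probe sets on 15 arrays. R 2.10.1 and affy are named in the submitters' processing notes; how background, normalization and probe summaries were handled is not given in the sources. That the scale is log2 follows from the value range (2.39 to 14.52). Arrays have no read depth, and their number limits the precision.

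Probe sets were named from the platform annotation, updated by Entrez ID to RefSeq symbols (41097 with 1 symbol, 1801 with several and 11777 with none in the table used here; 41043 matched). The 62 controls were left out, and each gene was represented by its brightest probe set, which gave 19775 genes, 10523 of them with several probe sets.

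Group means of all 15 arrays were fitted with limma 3.58.1 (lmFit, eBayes; R 4.3.3), without a replicate block, at a Benjamini-Hochberg adjusted p under 0.05; the steps were tested on simulated data. Tables used Python 3.11.15, pandas 2.3.3 and numpy 2.4.6. Named genes were the 10 largest treated differences in each direction among called genes without overlap between groups; the 8 largest per direction for the classes that disappeared (by line difference), were partly reduced (by drug effect) or arose (by treated difference); 4 per direction for those that widened or turned past A2780 (by drug effect); up to 4 per list and direction by p; and 10 fixed genes. Further list members are given with their values. One gene that the rule names is not reported here. The comparison, classes and lists were chosen with earlier results of these data known. Promoters came from RefSeq (GRCh38.p14), taken for the first such genes below A2780, leaving out chromosome 8. Alternatives covered the arrays in the fit, a replicate block, filters, probe set summaries, array weights, thresholds, normalization, left-out arrays, the untreated reference and rank product (100 permutations, 9 pairwise differences).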

Additional observations from a re-analysis of the deposited data

How the results depend on the processing

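The counts of genes higher and lower than A2780 in treated CP70 stayed within 1.5 times of 3367 and 2543 except with every probe set as a feature (6348 and 6703), a minimum of 2-fold (1075 and 769) and rank product (603 and 557). The counts of the smaller classes moved by more than 1.5 times in more settings. With array weights, 1572 differences were partly reduced, 797 widened, 2351 disappeared, 186 turned past A2780, 1062 arose, 459 were called in the treated contrast only and 1444 class members were called in the PXD101 arms. Without CP70 replicates 1 and 3, where the single array left is assumed to vary like the other groups, 88 were partly reduced, 93 widened, 94 disappeared, 16 turned past A2780, 275 were called in the line contrast only and 3299 in the treated contrast only. When the PXD101 arrays replaced those of untreated CP70, 205 disappeared, 663 were called in the line contrast only and 1705 in the treated contrast only.

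Fitting only the arrays compared gave 101 partly reduced, 123 widened, 150 that disappeared and 395 that arose. Genes above the median level alone gave 358 that arose, 694 in the treated contrast only and 436 members called in the PXD101 arms. Every probe set gave 8241 that remained, 457 widened, 695 that disappeared, 55 that turned past A2780, 1211 that arose, 3352 in the line contrast only, 2783 in the treated contrast only and 1255 members called in the PXD101 arms. A minimum of 2-fold in each call gave 1290, 38, 35, 57, 3, 163, 506, 315 and 213 for differences that remained, were partly reduced, widened, disappeared, turned past A2780 or arose, for the line contrast only, the treated contrast only and the members called in the PXD101 arms. An adjusted p under 0.01 gave 73 partly reduced, 87 widened, 135 that disappeared, 11 that turned past A2780, 329 that arose and 384 members called in the PXD101 arms. The fewer features, arrays or calls in these settings are part of their construction; beyond that the cause was not tested.

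Leaving out 1 array at a time gave 110 to 1164 partly reduced, 112 to 372 widened, 138 to 1629 that disappeared, 15 to 152 that turned past A2780, 405 to 972 that arose, 813 to 2046 in the line contrast only and 864 to 1686 in the treated contrast only. Same-numbered arrays deviated from their group means with correlations of -0.369 to 0.195, not all above 0.1, so the numbers do not pair them; a replicate block gave 3192 higher, 2413 lower and 280 that disappeared, and moved no class count by over 1.5 times.

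Of 198 named genes, 180 were called against A2780. Of these, 157 kept the call in every alternative at an adjusted p under 0.05 in which they were tested. With the 2-fold minimum and the adjusted p under 0.01 included, 135 did. Named genes were not followed with every probe set, rank product or a left-out array of the PXD101 arms. Genes above the median level held 139 of the 198. With the mean of all probe sets, SNRNP48 reversed to 0.05 and PMS1 to 0.21. Genes near the array floor have only a bound on their true fold.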
